A study of Ovis aries with 2 samples.

Results

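The loci described here are the very short ones among those measured in sheep subcutaneous fat: loci with a span from start to end below 200 bp, outside the mitochondrial genome, with a value above 0 in at least 1 of 2 libraries. They numbered 267 distinct positions of 54072 listed over both libraries. In the thin-tailed library 131 of 22740 loci above 0 were this short, a share of 0.576%, and in the fat-tailed library 149 of 23721, a share of 0.628%. Only 13 had identical ends and a value above 0 in both libraries. The loci were chosen by their span and by a value above 0, so their levels are given as a description.

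The libraries came from subcutaneous fat of lambs labelled as an Iranian native breed, 1 thin-tailed and 1 fat-tailed, with no treatment. All lambs were weaned at 90 days, had the same feed without restriction for 120 days and were slaughtered at 7 months, per the labels, and poly(A) RNA was sequenced. The series text speaks of duplicates, 1 library of each tail type was analysed, and the sources used here do not say whether it held RNA of 1 animal or of several. The fat-tailed library was assigned from the word Fat in its title, which could also name the tissue, so the direction of every difference rests on that reading.

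Since each tail type had a single library, differences were not checked against replicates, carry no p-value and compare these libraries only. The tables hold no gene names, and 0 of 16316 distinct Ensembl identifiers occurred in the RefSeq sheep gene table. Adipocyte and other tissue markers could therefore not be checked, and loci are named by position, with no genome build named. Each start is printed as the deposited start plus 1, so that bases are counted from 1. In bulk tissue, fewer cells of a type and less RNA per cell cannot be told apart.

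Genes this short are mostly small noncoding RNAs. Transfer RNAs carry amino acids to the ribosome, small nuclear RNAs form the core of the spliceosome, small nucleolar RNAs guide chemical changes of ribosomal RNA, and microRNAs repress messenger RNAs. Most of these carry no poly(A) tail, and a poly(A) library is not designed to capture them. The value used, FPKM, divides the mapped fragments of a locus by its length and by the mapped fragments of the library. Programs that compute it commonly use an effective length, the number of positions at which a fragment can start, which becomes very small as a transcript approaches the length of a sequenced fragment.

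The kinds of gene at this size can be seen in the RefSeq sheep annotation (assembly ARS-UI_Ramb_v3.0), used here only as a catalogue. It lists 4513 nuclear genes below 200 bp, of which 2429 are transfer RNAs with a median span of 72 bp, 1024 small nuclear RNAs with a median of 107 bp and 613 small nucleolar RNAs with a median of 124 bp. Between 150 and 199 bp it lists 158 genes, among them 74 small nuclear RNAs, 48 pseudogenes, 18 small nucleolar RNAs and 10 protein-coding genes. No short locus of the libraries could be matched to one of these genes.

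Annotated short loci were almost all listed at 0. Of the loci below 200 bp with an Ensembl identifier, 16 of 3819 were above 0 in the thin-tailed library (0.419%) and 16 of 3825 in the fat-tailed library (0.418%). Those below 100 bp were above 0 at 0 of 1530 and 1 of 1539 loci. From 100 to 149 bp the counts were 4 of 2048 and 4 of 2046, and from 150 to 199 bp they were 12 of 241 (4.98%) and 11 of 240 (4.58%). The share above 0 was thus highest in the longest class in both libraries. Such a 0 may stand for an estimate that failed or for fragments assigned to another locus, and is given only as listed.

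Most short loci above 0 were instead assembled ones, which carry a name made per library. Of the assembled loci below 200 bp, 115 of 155 were above 0 in the thin-tailed library (74.2%) and 133 of 164 in the fat-tailed library (81.1%). Loci called assembled are those without an Ensembl identifier. Such a locus can be listed because fragments of that library were assembled there, while an Ensembl locus comes from an annotation. The name does not show this for each locus, since 40 and 31 of the assembled loci were at 0. In the fat-tailed library, the one on chromosome 1, 98397279 to 98397442, had the same ends as an Ensembl locus of the thin-tailed library. The shares of annotated and assembled loci are therefore given only as listed. The median span of all short loci above 0 was 172 bp in the thin-tailed library, with a range of 68 to 198 bp, and 170 bp in the fat-tailed library, with a range of 67 to 199 bp. Annotated short loci listed at 0 were shorter, with a median of 105 bp in each library.

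The FPKM of the short loci was far above that of other loci. Their median was 1838 FPKM in the thin-tailed library (range 36.8 to 24295400) and 2140 in the fat-tailed library (18.9 to 246102000), against 4.88 and 5.31 for all loci above 0. Together they held 94.3% of the FPKM outside the mitochondrial genome in the thin-tailed library and 99.4% in the fat-tailed one. A handful of loci made up these shares. The highest locus alone held 58.7% and 65.0%, the 5 highest held 90.5% and 90.2%, and without the 10 highest the short loci held 23.3% and 82.0% of the rest.

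**Figure D1:**
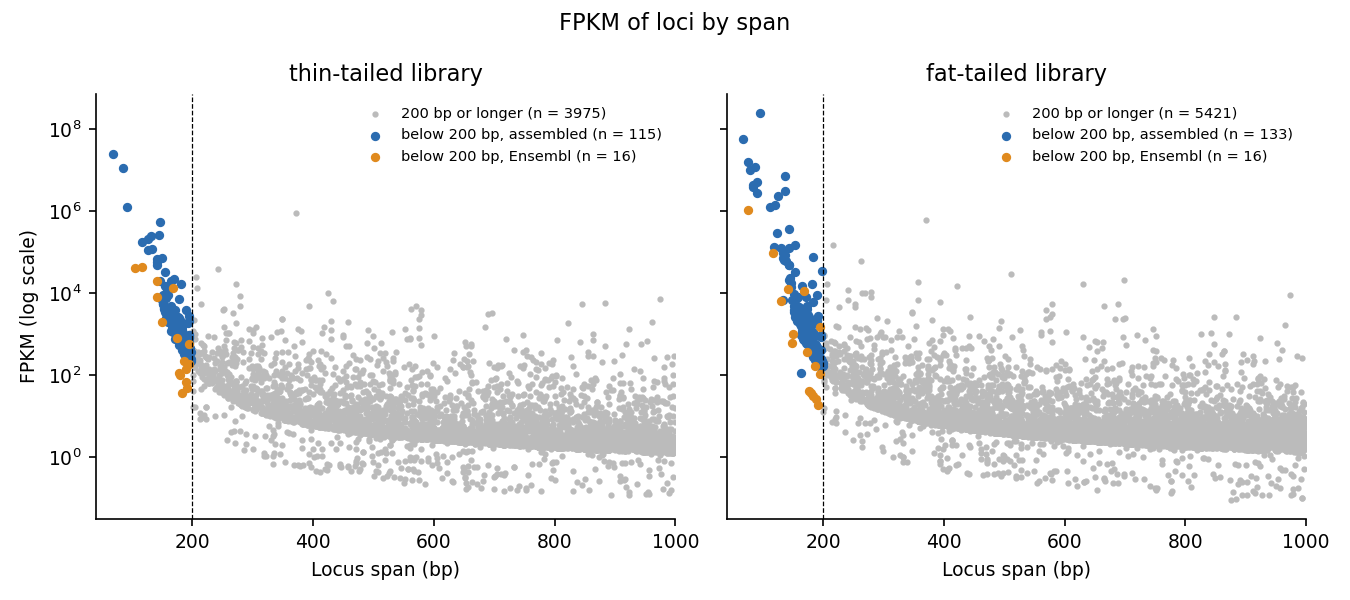
FPKM (vertical axis, log scale) against locus span in bp (horizontal axis) for loci above 0 and below 1000 bp, 1 panel per library, with each point 1 locus. Loci below 200 bp (blue assembled, orange Ensembl) climb steeply to the left of the dashed line, up to 24295400 FPKM in the thin-tailed library and 246102000 in the fat-tailed one.

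The deposited bounds show how few fragments lie behind these values. If a bound is taken to lie 2 standard deviations from the value and to hold counting error alone, it gives back a number of fragments, called implied fragments here. At the median short locus there were 16.0 implied fragments in the thin-tailed library (highest 487) and 17.0 in the fat-tailed one (highest 3672). Among short loci under 100 implied fragments, 81 of 121 and 82 of 131 were within 0.1 of a whole number. By this measure the short loci held 0.0914% of the fragments in the thin-tailed library, 4601 of 5032911, and 0.339% in the fat-tailed library, 16979 of 5010291. The library totals are approximate, since loci with several transcripts have wider bounds than counting error gives.

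Annotated and assembled short loci differed in this support. The 16 Ensembl loci above 0 had a median of 2.50 implied fragments in the thin-tailed library and 1.50 in the fat-tailed one, and 11 of the 16 in each library had 5 or fewer. Assembled loci had medians of 18.0 and 18.9. In the thin-tailed library none was below 9.59, while in the fat-tailed library 2 had 5 or fewer, the lowest 1.00. Since assembled loci can be listed through their fragments, a minimum number for listing may set the floor in the thin-tailed library, which was not tested. The difference in support is a description. A lower bound of 0 was listed for 11 short loci of the thin-tailed library and 12 of the fat-tailed one.

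Among the short loci, FPKM was higher the shorter the span, while the number of fragments was nearly unrelated to it. Spearman's rho between span and FPKM was -0.84 over the 131 loci of the thin-tailed library and -0.80 over the 149 of the fat-tailed library. Between span and implied fragments it was 0.15 and 0.07. Among loci of 1000 bp or more, rho between span and FPKM was -0.05 (n = 18634) and -0.16 (n = 18151). These are descriptions across loci that share 1 library each.

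The FPKM given by 1 implied fragment traced this relation. Its median was 181503 in the thin-tailed library and 294606 in the fat-tailed one below 100 bp, and 21725 and 13607 from 100 to 124 bp. It was 4047 and 4455 from 125 to 149 bp, 201.0 and 90.6 from 150 to 174 bp, and 32.1 and 23.6 from 175 to 199 bp. Longer loci continued the decline, with 7.10 and 6.25 from 200 to 249 bp, 0.583 and 0.549 from 300 to 499 bp, and 0.0956 and 0.10 from 1000 to 1999 bp. The same number of fragments therefore gave values several orders of magnitude apart within the short loci alone.

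**Figure D2:**
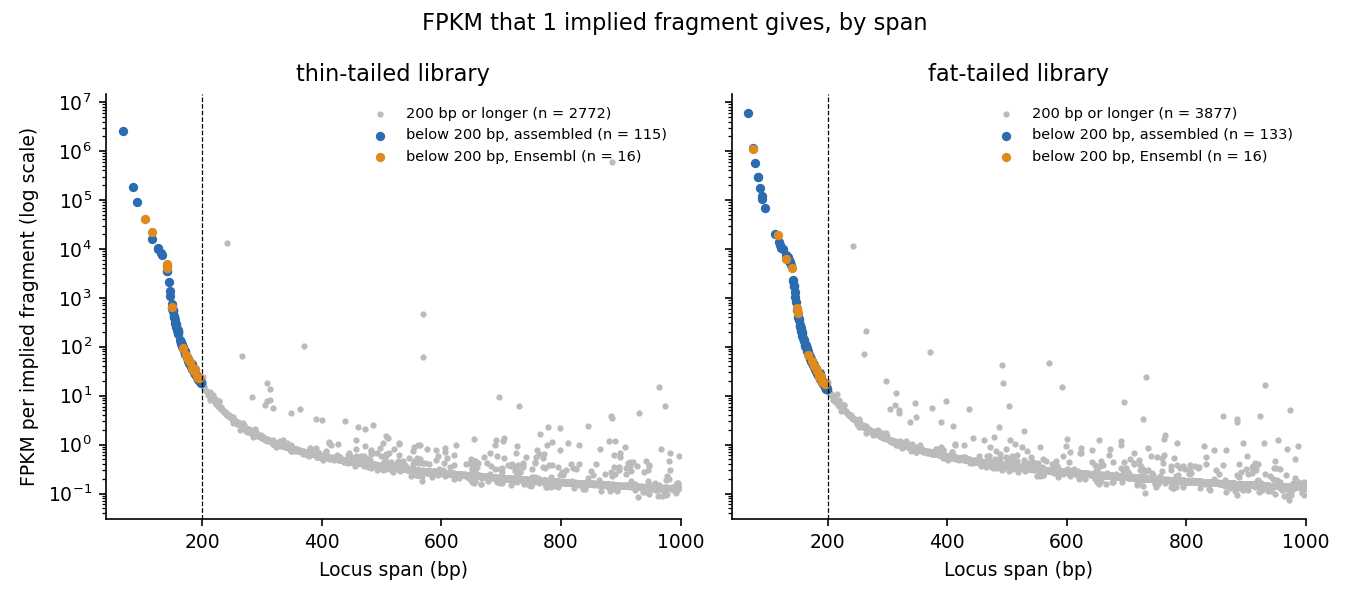
FPKM per implied fragment (vertical axis, log scale) against locus span in bp (horizontal axis), 1 point per locus, for all loci below 200 bp and for loci of 200 to 999 bp that overlap no other locus. Ensembl and assembled short loci lie on 1 narrow curve in each library, and most longer loci continue it to the right of the dashed line at 200 bp, with some far above it.

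The values next to the limit of 200 bp, which defines the short loci, are a description. Just inside it, the thin-tailed library held a locus on chromosome 14, 48760470 to 48760667, at 363 FPKM and one on chromosome 1, 102640538 to 102640735, at 218. Just outside it, at 201 bp, stood a locus on chromosome 19, 56044040 to 56044240, at 1214 FPKM and one on an unplaced scaffold at 410.2. In the fat-tailed library the highest values inside were 34312 FPKM on chromosome 16, 35669277 to 35669474, and 224 on chromosome 3, 551066 to 551263. Those outside were 961 FPKM at the same chromosome 19 locus and 903 on chromosome 18, 48859088 to 48859288. In the thin-tailed library 1 fragment was worth 18.2 and 18.3 FPKM at the 2 loci inside, and between 16.0 and 24.3 at the 8 loci of 201 bp outside. In the other library the ranges were 13.5 to 14.0 over 4 loci inside and 12.5 to 18.7 over 7 outside.

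The highest values belonged to loci below 150 bp, and most of them rested on few fragments. In the thin-tailed library the highest was a 68 bp locus on chromosome 4, 112979620 to 112979687, at 24295400 FPKM from 9.59 implied fragments. Next came an 85 bp locus on chromosome 3, 221422246 to 221422330, at 11095400 FPKM from 61.1, and a 91 bp locus on chromosome 4, 75873218 to 75873308, at 1268630 FPKM from 14.0. The other two were better supported. A 147 bp locus on chromosome 1, 216806925 to 216807071, stood at 533175 FPKM from 487 implied fragments, and a 144 bp locus on chromosome 15, 79992747 to 79992890, at 265770 FPKM from 124.

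In the fat-tailed library the highest was the same chromosome 3 region, 221422243 to 221422337, a 95 bp locus at 246102000 FPKM from 3672 implied fragments. The chromosome 4 region, 112979620 to 112979686, followed at 56598600 FPKM from 9.59. A 75 bp locus on chromosome 1, 72531281 to 72531355, was listed at 16269400 FPKM from 14.0. An 87 bp locus on chromosome X, 11135607 to 11135693, stood at 12336500 FPKM from 68.7, and a 79 bp locus on chromosome 15, 80862563 to 80862641, at 10206700 FPKM from 18.0. The first and the last of these 3 loci overlapped no locus of the thin-tailed table, as did the 91 bp chromosome 4 locus the other way round. Values above 1000000 FPKM were listed at 3 loci of the thin-tailed library and 15 of the fat-tailed one.

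Few short loci could be compared at the same ends. Joined on identical positions, 23 had a value above 0 in at least 1 library: 13 in both, 6 in the fat-tailed library alone and 4 in the thin-tailed library alone. On the scale log2((fat-tailed FPKM + 1)/(thin-tailed FPKM + 1)), which understates the ratios of low values, 8 were at least 2-fold higher in the fat-tailed library, against 10.2% of 2495 loci of any span joined the same way, and 8 at least 2-fold lower, against 17.9%. The median was -0.64, against -0.21 over all joined loci. Loci at 0 in 1 library had to differ by the rule that chose them. They made up 6 of the 8 higher loci, each with 1 implied fragment in the fat-tailed library, and 4 of the 8 lower ones, with 1 to 4 in the thin-tailed library.

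One of these loci, chosen after its values were seen, is a 75 bp locus on chromosome 6, 89459978 to 89460052. It was listed at 0 in the thin-tailed library and at 1088760 FPKM (0 to 3266270) in the fat-tailed library, and that value corresponded to 1 implied fragment.

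Of the 13 loci above 0 in both libraries, 2 had deposited intervals that did not overlap, both higher in the fat-tailed library, against 17.1% of joined loci higher and 28.3% lower. ENSOARG00000001097, on chromosome 1, 124860372 to 124860566, had 563 FPKM (338 to 789) in the thin-tailed library and 1479 (1160 to 1798) in the fat-tailed one, from 25.0 and 86.0 implied fragments. The assembled locus on chromosome 15, 79992747 to 79992890, stood at 265770 FPKM (217981 to 313560) and 367766 (316917 to 418616), from 124 and 209 implied fragments. No short locus with identical ends was lower with intervals apart. The best supported one that was lower in FPKM, ENSOARG00000019935 on chromosome 14, 62565220 to 62565387, was chosen after its values were seen. It had 13091 FPKM (10894 to 15289) and 11368 (9599 to 13137), so the intervals overlapped, and the implied fragments went the other way, from 142 to 165.

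At these 13 loci 1 fragment was worth less FPKM in the fat-tailed library every time. The ratio of its worth, fat-tailed over thin-tailed, ran from 0.740 to 0.887 with a median of 0.761. Among loci with identical ends the median was 0.838 from 200 to 299 bp, where 45 of 45 were below 1, then 0.979 from 300 to 499 bp, 1.01 from 500 to 999 bp and 1.03 from 1000 to 1999 bp. Measured in implied fragments, 2 of the 13 loci were at least 2-fold higher in the fat-tailed library, against 8.21% of joined loci, and 0 were 2-fold lower, against 18.7%. A further 3 loci had 1.99 implied fragments in the thin-tailed library and 1.00 in the fat-tailed one, just short of 2-fold lower. In FPKM the same 13 loci gave 2 higher and 4 lower.

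Because each library was assembled on its own, most short loci had slightly different ends in the tables. Pairing loci that each covered at least 80% of the other gave 87 pairs with a short member, 78 of them short in both tables and 77 above 0 in both. Their ends differed little: the spans of the 77 pairs differed by a median of 5 bp and at most 40 bp. In FPKM 18 pairs were at least 2-fold higher in the fat-tailed library, against 8.29% of 13107 pairs of any span, and 21 at least 2-fold lower, against 14.7%, with a median log2 ratio of -0.40. These include the 6 loci at 0 in the thin-tailed table and the 4 at 0 in the fat-tailed one, and over the 77 pairs above 0 in both FPKM gave 12 higher and 17 lower. In implied fragments 12 of the 77 were 2-fold higher, against 7.15% of 12722 pairs, and 7 were 2-fold lower, against 16.6%, with a median log2 ratio of 0.14. The median over all pairs was -0.12 in FPKM and -0.17 in fragments. Deposited intervals were apart in 11 pairs that were higher, against 19.3% of all pairs, and in 11 that were lower, against 31.1%.

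FPKM and fragments pointed opposite ways in 29 of the 77 pairs (37.7%), against 19% of all pairs and 11.2% of pairs from 200 to 999 bp. No minimum difference was required, so some pairs with equal implied fragments up to rounding were counted as well. Examples are the chromosome 4 locus at 112979620, with 9.59 in each library, and ENSOARG00000008562, with 7.00 in each. The pairs were also set apart by which assembly drew the locus longer. In the 25 pairs with a shorter fat-tailed locus the median log2 ratio was 0.28 in FPKM and -0.12 in fragments. In the 37 pairs with a longer fat-tailed locus it was -0.62 in FPKM and 0.42 in fragments, and 21 of these 37 pairs had opposite directions. The 15 pairs of equal span above 0 in both libraries had medians of -0.64 in FPKM and -0.29 in fragments. In FPKM 4 of them were higher and 11 lower. Only 6 pairs of equal span had at least 10 implied fragments in each library, and their median log2 ratio in fragments was 0.30. Over the 77 pairs, which share both libraries, Spearman's rho of the span difference was -0.41 with the FPKM ratio and 0.45 with the fragment ratio.

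**Figure D3:**
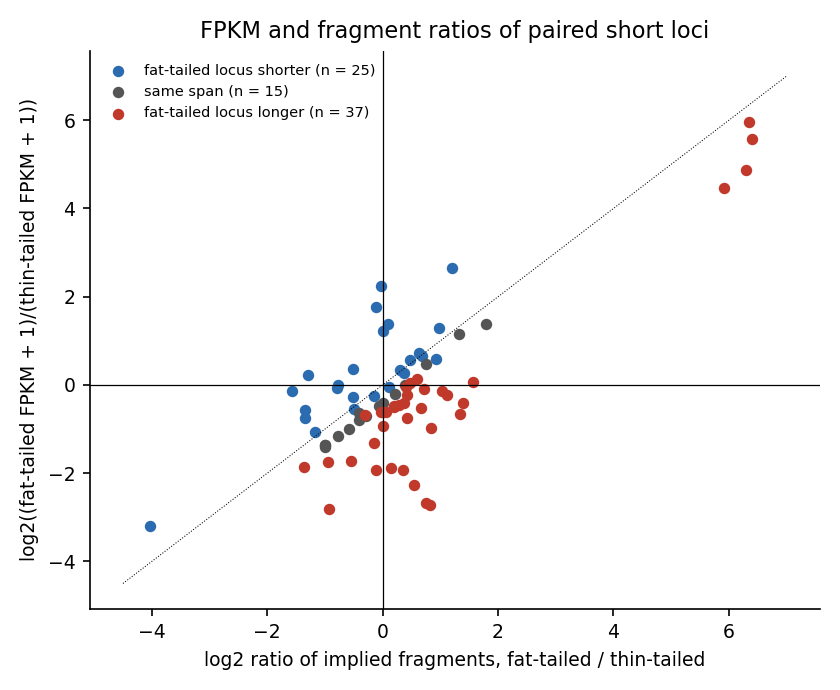
Log2 ratio of FPKM (vertical axis, 1 FPKM added) against log2 ratio of implied fragments (horizontal axis), fat-tailed over thin-tailed, for the 77 pairs above 0 in both libraries, coloured by which library drew the longer locus. Most red points (longer in the fat-tailed library) lie below the dotted line of equal ratios. There are 29 points of opposite sign, a few of them lying on the vertical line at 0 up to rounding.

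In 3 pairs chosen after their values were seen, FPKM differed while the implied fragments were equal or close. The chromosome 4 locus at 112979620 ended 1 bp earlier in the fat-tailed table, with a span of 67 in place of 68 bp. Its value was 24295400 FPKM in the thin-tailed library and 56598600 in the fat-tailed one, on 9.59 implied fragments in each. On chromosome 3, the pair 209759764 to 209759951 and 209759766 to 209759961 had 16.0 implied fragments in both libraries and 463 against 244 FPKM. On chromosome 1, the pair 216806925 to 216807071 and 216806927 to 216807080 stood at 533175 against 145401 FPKM, while the implied fragments were 487 and 536.

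A few pairs stood far from the rest in fragments as well. Implied fragments were rounded to whole numbers for a limit of 10, so pairs at 9.59 passed it. Of the 68 short pairs with at least 10 in each library by this limit, 4 were over 30-fold higher in the fat-tailed library, against 0.0948% of 11605 pairs of any span. None was as much lower, against 0.172%. This threshold was chosen after the values were seen. The other 73 of the 77 pairs were at most 3.45-fold higher.

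The largest of the 4 in FPKM was the chromosome 3 region from 221422243 to 221422337, at 11095400 FPKM (8257170 to 13933600) in the thin-tailed library and 246102000 (237978000 to 254225000) in the fat-tailed one. Its implied fragments were 61.1 and 3672, a 60.1-fold difference, and this locus alone held 65.0% of the FPKM of the fat-tailed library. On chromosome 2, 161512266 to 161512401, the values were 117472 FPKM (58736 to 176208) and 7351700 (6944770 to 7758630), from 16.0 and 1306 fragments, an 81.6-fold difference. Both loci lay outside any longer locus.

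A second position on chromosome 3, 113910944 to 113911127, stood at 1593 FPKM (1042 to 2145) and 76408 (73538 to 79279), from 33.4 and 2834 fragments, an 84.9-fold difference. It lay inside a longer locus that was at 0.282 FPKM in the thin-tailed library and 0.131 in the fat-tailed one, so the host was not higher in the fat-tailed library. On chromosome 16, 35669277 to 35669474, the values were 1163 FPKM (745 to 1581) and 34312 (32926 to 35698), from 31.0 and 2450 fragments, a 79.0-fold difference. In all 4 pairs the fat-tailed locus was the longer one, by 3 to 15 bp, and each fragment was worth less FPKM there, so the ratio in FPKM was lower than that in fragments.

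**Figure D4:**
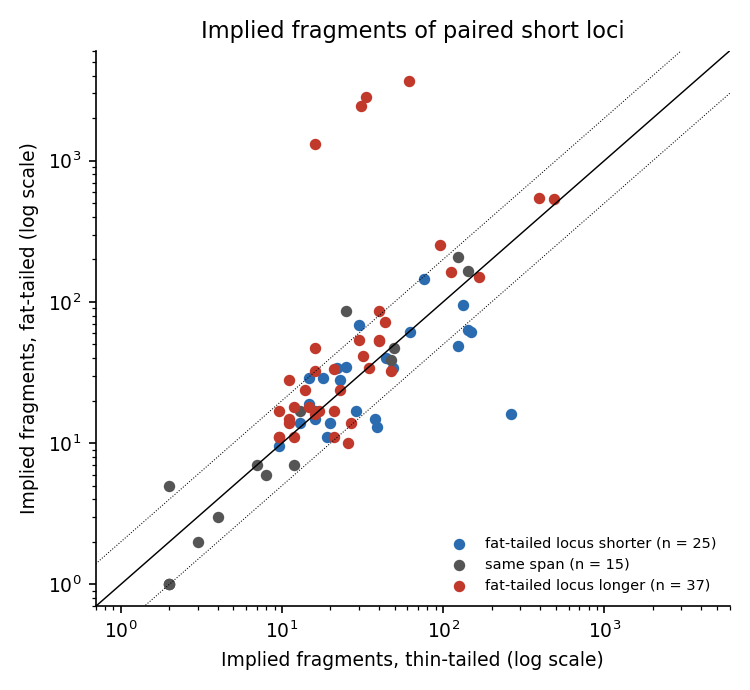
Implied fragments of the 77 paired short loci in the thin-tailed (horizontal axis, log scale) and the fat-tailed library (vertical axis, log scale), with a solid line at equality and dotted lines at 2-fold. There are 4 pairs 60.1 to 84.9-fold above equality, and 1 pair lies 16.4-fold below it.

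The largest difference the other way was on chromosome 19 in the pair starting at 17089225 in the thin-tailed table. It stood at 22076 FPKM in the thin-tailed library and 2415 in the fat-tailed one, from 262 and 16.0 implied fragments, a 16.4-fold difference.

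Many short loci had no counterpart. Of the 131 in the thin-tailed library 32 overlapped no locus of the other table, and of the 149 in the fat-tailed library 39 did. Among loci of 200 bp or more the shares were 5.21% and 6.02%. A further 18 and 27 lay inside a longer locus of the other table. The remaining loci comprised 13 in each table with identical ends and values above 0, 4 and 6 with identical ends and a 0 in the other table, 55 in each paired with another short locus, 3 and 6 paired with one past the limit, and 6 and 3 with another kind of overlap.

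The unmatched loci of the fat-tailed library included well supported ones. Of the 39, 7 had more than 100 implied fragments, against 1.06% of the unmatched longer loci, while 0 of the 32 in the thin-tailed library did, against 0.68%. The best supported was at bases 1 to 137 of an unplaced scaffold, with 561 implied fragments. It was followed by chromosome 13, 32387589 to 32387778, with 446, chromosome X, 3839195 to 3839319, with 232, and chromosome 19, 4909293 to 4909475, with 207. The highest unmatched locus of the thin-tailed library had 36.2. The limit of 100 fragments was also chosen after the values were seen.

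The share of short loci that lay within a longer locus was close to that of other small loci. Nested loci were 38 of 131 in the thin-tailed library (29.0%) and 44 of 149 in the fat-tailed library (29.5%). The share was 13.3% and 13.5% among all loci of 200 bp or more, and 28.1% and 26.6% among those from 200 to 999 bp. The tables give no strand, so a nested locus and its host could share fragments.

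Nested loci had the higher FPKM in nearly every case, and fewer fragments in most. FPKM was above that of the host at 38 of 38 nested loci in the thin-tailed library and 43 of 44 in the fat-tailed one, against 58.9% and 63.1% of nested loci of 200 bp or more. The host was listed at 0 for 8 in each library, and these nested loci had to be higher by the rule that chose them. Among hosts above 0, the nested locus was higher in FPKM at 30 of 30 and 35 of 36. A fragment was also worth more FPKM the shorter the locus, so these counts are a description. With a host above 0, the median ratio of nested locus to host was 256 over 30 loci in the thin-tailed library and 193 over 36 in the fat-tailed one in FPKM. In implied fragments it was 0.275 and 0.255, and 9 of 30 and 8 of 36 nested loci had more fragments than the host. Of nested loci of 200 bp or more with a host above 0, 770 of 2323 and 918 of 2449 did. From 200 to 999 bp 208 of 960 and 342 of 1214 did, so this share was not particular to short loci. Hosts were long, with median spans of 57494.5 and 45873 bp, and any with several transcripts would have implied fragments that are too low. Such hosts would raise the fragment ratios and the counts of nested loci with more fragments. In the thin-tailed library, a host on chromosome 2 starting at 1715164 came to only 0.247 implied fragments.

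**Figure D5:**
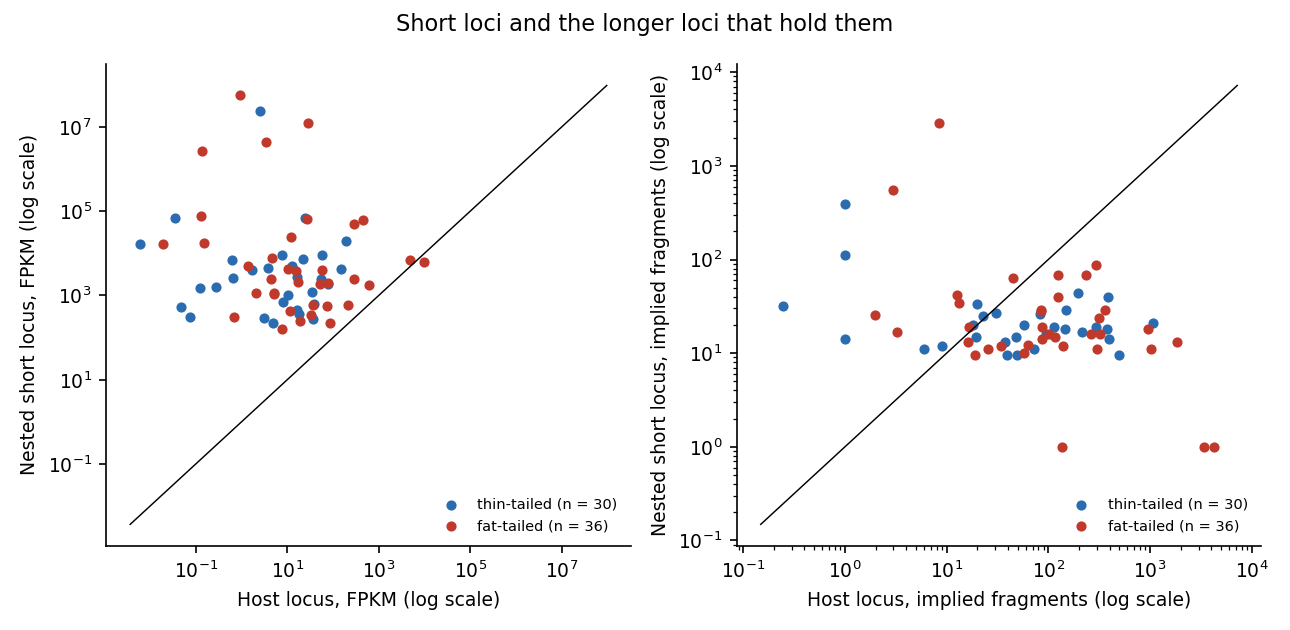
Nested short loci (vertical axes) against the longer locus that holds each (horizontal axes) in FPKM on the left and in implied fragments on the right, all on log scales, for hosts above 0 (30 loci of the thin-tailed library and 36 of the fat-tailed one). All but 1 point lie above the line of equality in FPKM, and most lie below it in fragments. Hosts with several transcripts would have implied fragments that are too low.

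The extreme ratios differed in their support. In the thin-tailed library the chromosome 4 locus at 112979620 had 24295400 FPKM within a host at 2.57, but 9.59 implied fragments against 49.1 for the host. By contrast, the chromosome 25 locus, 15816685 to 15816865, had 16492 FPKM and 394 fragments within a host at 0.00616 FPKM and 1.00 fragment. The chromosome 1 locus, 19486294 to 19486443, had 70179 FPKM and 112 fragments within a host at 0.0353 FPKM and 1.00 fragment. These last 2 thus outnumbered their hosts in fragments too.

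The lowest ratios in the thin-tailed library were those of loci close to 200 bp. They stood at 276 FPKM on chromosome 2, 129841226 to 129841414, within a host at 37.2, at 630.3 on chromosome 5, 41590167 to 41590360, within a host at 39.2, and at 363 on chromosome 14, 48760470 to 48760667, within a host at 18.3.

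In the fat-tailed library the ratios ran from 0.632 to 59711857, against 7.42 to 9438809 in the other, and the lowest included loci of 130 and 134 bp with 1 fragment each. Its highest ratios were at the chromosome 4 locus, with 56598600 FPKM in a host at 0.948, on chromosome 17, 56710406 to 56710496, with 2737320 FPKM from 25.8 fragments in a host at 0.141, and on chromosome 3, 172724692 to 172724774, with 4378690 FPKM from 14.7 fragments in a host at 3.46. The only nested locus below its host was on chromosome 8, 58025363 to 58025492, at 6327 FPKM from 1.00 fragment in a host at 10011 FPKM. Next lowest were chromosome 21, 49325253 to 49325386, at 6886 FPKM from 1.00 fragment in a host at 4709, and chromosome 3, 551066 to 551263, at 224 FPKM in a host at 86.2. The chromosome 21 locus was the only nested one that carried the same identifier as its host.

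Nested loci and their hosts were also set side by side between the libraries. Of 26 pairs nested in both tables, 18 had a host above 0 in both. With no pseudocount, since 5 hosts were below 1 FPKM in at least 1 library, the host differed at least 2-fold in 5 of these 18. The short locus did so in FPKM in 8, with 4 higher and 4 lower, and in fragments in 4. Short locus and host had the same direction in FPKM in 9 of 18. The median size of the log2 ratio was 0.53 for hosts, 0.79 for short loci in FPKM and 0.58 for short loci in fragments. On chromosome 7, the short locus starting at 49633701 in the thin-tailed table stood at 2813 FPKM there and 438 in the fat-tailed library, on 14.0 and 23.7 fragments, while its host was at 16.2 and 11.7 FPKM.

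Short loci were spread over the genome with more on unplaced scaffolds. These held 22 of the 131 loci (16.8%) in the thin-tailed library and 21 of the 149 (14.1%) in the fat-tailed one, against 3.15% and 2.80% of longer loci. No other locus of the same table overlapped 92 and 105 of them. For those with a neighbour on the same chromosome or scaffold, the median gap to the nearest locus was 2859 bp over 78 loci in the thin-tailed library and 6928 bp over 94 in the fat-tailed one, and 28 and 32 lay within 1000 bp of one. Only 6 in each library had another short locus above 0 within that distance.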

How the data were processed

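Poly(A) RNA of subcutaneous fat was sequenced in 2 libraries. The deposited values are FPKM with a lower and an upper bound per locus, per the file headers, whose columns match a Cufflinks-style tracking file. Per the submitters' processing notes, the authors used FastQC, TopHat and Cuffdiff, with no version named. The build, the annotation and any scaling were not given in the sources used here. Short loci and every list were chosen with earlier results of these data known.

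Tables were joined on identical positions, and also by 80% reciprocal overlap (bedtools 2.31.1; 70 tied pairs left out). Ratios used FPKM + 1, at loci of at least 1 FPKM in 1 library. Implied fragments, (2 × FPKM/(upper bound − FPKM)) squared, cover counting error only, and total depth is unknown. The rule for naming took the 5 highest loci per library, joined loci with intervals apart and at least 100 FPKM, the 3 highest and 3 lowest ratios to a host, and the loci nearest the limit; other named loci were chosen after their values were seen. Implied fragments and the limits of 30-fold, 10 and 100 fragments were added after seeing the data. The limit of 10 was applied after rounding to a whole number. Scripts (Python 3.11.15, pandas 2.3.3) were tested on simulated data. The simulated bounds followed the same formula and held no loci with several transcripts. That test therefore could not check whether implied fragments hold in these libraries. No genome was used, so sequences and annotation of the loci are not given.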

Additional observations from a re-analysis of the deposited data

How the results depend on the processing

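No paired analysis was possible because with 1 library of each kind no result comes from a test, and no library could be left out. Of 66 alternative values, 44 were labelled the same, 20 moved and 2 reversed. Counts were labelled by their own size and not by the number of loci behind them, so 12 of 77 pairs was the same as 8 of 23. A median was labelled the same anywhere from -1.37 to 1.39 if its sign was kept. The label is therefore a loose one. The counts of loci at least 2-fold higher and lower, 8 and 8, became 5 and 1 below 150 bp, 26 and 27 below 300 bp, 18 and 21 with 80% overlap, and 2 and 4 above 0 in both libraries. They became 2 and 0 in implied fragments of loci above 0 in both. They were 5 and 7 at loci overlapping no other, 6 and 4 at a 4-fold limit, 11 and 13 with 80% overlap and 10 fragments in both, and 12 and 7 in implied fragments with 80% overlap. The median log2 ratio of -0.64 reversed to 5.20 below 150 bp, where 8 loci were left, and to 0.14 in implied fragments with 80% overlap. Centring on the longer loci, whose median was -0.21, left it at -0.43. The share of FPKM fell to 23.3% in the thin-tailed library and 82.0% in the fat-tailed one without the 10 highest loci. The nested share in the fat-tailed library was 43.2% below 150 bp. Nested loci above their host numbered 6 in the thin-tailed library and 15 in the fat-tailed one below 150 bp, and 103 and 127 below 300 bp, where more or fewer loci are counted. The alternatives with implied fragments or with 10 fragments in both were chosen after seeing the data. The median short locus rests on 16.0 and 17.0 implied fragments, which limits every ratio given here.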

Other observations

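Differences over 30-fold in implied fragments, with at least 10 in each library after rounding, were also present at a few longer loci. All of them below 1000 bp were higher in the fat-tailed library. They numbered 4 of 1411 pairs from 200 to 999 bp. A 214 bp locus on chromosome 1, starting at 141844508, had 554 implied fragments in the thin-tailed library and 21625 in the fat-tailed one. A 430 bp locus on chromosome 6, starting at 19512267, had 1503 and 67490 (738 and 29109 FPKM), while the longer locus around it was at 0.269 and 0.0902 FPKM. A 626 bp locus on chromosome 4, starting at 117572719, had 560 and 67249, and a 659 bp locus on chromosome 22, starting at 2612391, had 196 and 20667. Among pairs of 1000 bp or more, 3 of 10126 were over 30-fold higher and 20 over 30-fold lower, and there the wide bounds of loci with several transcripts make the implied fragments uncertain.

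Of the short Ensembl loci listed at 0, 42.4% in the thin-tailed library and 41.3% in the fat-tailed one lay inside a longer locus. Among the Ensembl loci above 0, 2 of 16 did in each library.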
